A study of Rattus norvegicus with 9 samples.

Results

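The 36 genes of the integrins and the focal adhesion kinase complex were followed in rat liver, in 3 normal rats, 3 rats given diethylnitrosamine (DEN) and 3 rats given DEN and Pien-Tze-Huang (PZH), a Chinese patent medicine. The genes were chosen by symbol among the 32883 genes of the authors' table and comprised 15 integrin alpha subunits, 8 beta subunits and 13 kinases and adaptors. Symbols matched a gene in the table for 35 of them, and Itgam was not analysed here. Male Sprague-Dawley rats received weekly intraperitoneal injections of 0.01% DEN under a protocol of 16 weeks, which takes the liver through fibrosis and cirrhosis to hepatocellular carcinoma (HCC), and normal rats received a normal diet. Liver mRNA was sequenced as 1 library per rat (N1, N3 and N12 for normal, M13, M17 and M24 for DEN, and G27, G28 and G42 for DEN+PZH). The study gave PZH at a low or a high dose and collected livers at different weeks of the protocol. The PZH dose and the week of collection of the sequenced rats are not given in the sources used here. The DEN+PZH rats may thus mix doses, and each group may mix weeks. In the deposited labels the M rats also carry PZH as treatment, so the groups follow the letter of each rat's name and the methods of the study, and the label of the M rats as DEN without PZH rests on these.

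Integrins are receptors for the extracellular matrix and for other cells, each built of an alpha and a beta chain that together set the ligand. Talin and kindlin bind the tail of the beta chain and switch the receptor on, and the focal adhesion kinase (FAK, gene Ptk2) then recruits Src and the scaffolds paxillin and p130Cas at the adhesion site. In liver, β1 integrins anchor hepatocytes and stellate cells to collagen and laminin, αvβ6 and αvβ8 release active TGF-β from its latent complex, and β2 and β7 integrins are carried by leukocytes.

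The 9 libraries held 14922973 to 27161496 counts, with G27 the deepest. Levels are given as CPM, counts scaled to a common library size by TMM over the 9 rats, and TMM factors were 0.731 to 0.799 in normal, 1.21 to 1.58 in DEN and 0.863 to 0.941 in DEN+PZH rats. The limit that a count of 0 allows (3 counts) was 0.125 to 0.252 CPM. The labelled tissue was borne out by 8 of 8 hepatocyte markers, each detected in every group, and their summed level was 124441 to 133870 CPM in normal, 19915 to 47874 in DEN and 90759 to 128310 in DEN+PZH rats. In whole liver, fewer cells of a type and less RNA per cell cannot be told apart. Of the 35 members, 16 overlap another gene in the coordinates of the authors' file, 10 of them a protein-coding gene, and whether counting used strand is not given in the sources used here.

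DEN against normal asks what the carcinogen changed. In this comparison 23 of 34 tested members rose and 2 fell at an adjusted p under 0.05 (73.5%, beside 45.8% of all 14255 genes tested, 25.3% higher and 20.5% lower). The collagen receptor subunits Itga11 and Itga2 had the largest fitted rises, from 1 and 3 counts in the normal rats together, with ratios of counts of 144 (25.6 to 5703) and 85.5 (29.1 to 416). Itga8 and Itgb6 rose 67.9- and 66.5-fold, followed by Itgb4 at 14.3-fold, Itgb8 at 14.1-fold, the leukocyte subunit Itgax at 12.6-fold and Itga3 at 10.4-fold. The kinase Ptk2 itself, which encodes FAK, had a log2 fold change of 0.19 ± 0.15 (SE) and was not called. The median log2 fold change of the tested members was 0.92, beside 0.03 over all genes tested. Past the thresholds of the study, with log2 fold changes beyond 2 in size and unadjusted P values under 0.001, were 10 members, all higher (12.3% of all genes tested passed, 8.81% higher and 3.49% lower). These were Itga2, Itga3, Itga6, Itga8, Itga11, Itgax, Itgb4, Itgb6, Itgb8 and Ptk2b. The CPM ranges of the groups did not overlap for 27 members, 24 of them higher in DEN (58.8% of all genes tested, 31.3% higher). For 7 members (Itga2, Itga8, Itga11, Itgax, Itgb6, Itgb7 and Itgb8) the filter on low counts was passed through the DEN rats alone, and of the other 27, 16 rose and 2 fell. Scaled to library totals without TMM, the median of all genes moved to 0.89, and 31 members were then called higher and 0 lower (0 lower at an unadjusted P under 0.05 too). In that fit 63.7% of all genes were called.

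DEN+PZH against DEN asks what PZH changed in rats that all carried the DEN treatment. In this comparison 13 of 34 tested members fell and 0 rose by edgeR (38.2%, beside 19.1% of all 14272 genes tested, 10.3% lower and 8.72% higher). The 13 were the laminin receptor subunits Itga3, Itga6 and Itgb4, the epithelial and mesenchymal subunits Itgb6, Itga8 and Itga2, the leukocyte subunits Itgax, Itga4, Itgal and Itgb7, and the signalling genes Ptk2b, Src and Zyx. At an unadjusted P under 0.05, 21 members were lower and 0 higher, and DESeq2 called 17 lower and 0 higher. DESeq2 called 26.5% of all genes in this comparison. The median log2 fold change was -0.62 for the tested members and 0.01 for all genes. Itga3 and Itgb4 passed the thresholds of the study (2 members, both lower, beside 2.43% of all genes tested, 1.35% lower and 1.08% higher). The groups did not overlap for 22 members, all lower in DEN+PZH (40.9% of all genes tested, 22.5% lower and 18.5% higher). For Itga2 the filter on low counts was passed through the DEN rats alone, and of the other 33 members, 12 fell. The count of calls moved with single rats. It was 1 without M13 (Itga3), 4 without M24, 8 without G27, 5 without G28, 5 without G42 and 17 without M17, while the share of all genes called was 1.87%, 5%, 14.9%, 7.94%, 8.22% and 22.6% in the same fits. Scaled to library totals, the median of all genes moved to -0.67 and 30 members were called lower and 0 higher (0 higher at an unadjusted P under 0.05 too). In that fit 43.8% of all genes were called.

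DEN+PZH against normal asks how far the livers of PZH rats stood from those of untreated rats. In this comparison 6 of 33 tested members were higher and 0 lower by edgeR (18.2%, beside 5.21% of all 13348 genes tested, 4.07% higher and 1.15% lower). They were Itga6, Itga8, Itga11, Itgax, Itgb6 and Ptk2b. At an unadjusted P under 0.05, 11 members were higher and 0 lower, and DESeq2 called 8 higher and 0 lower. DESeq2 called 9.89% of all genes in this comparison. Itga8, Itga11 and Itgb6 passed the thresholds of the study (3 members, beside 2.32% of all genes tested). Groups did not overlap for 11 members, all higher in DEN+PZH (24.2% of all genes tested, 13.6% higher). For 6 members the filter was passed through the DEN+PZH rats alone (Itga8, Itga11, Itgax, Itgb6, Itgb7 and Itgb8), and of the other 27, 2 were called higher. Without N1 the count was 0 (10 higher at an unadjusted P under 0.05), without G28 it was 1 (Itga8) and without G42 it was 3. The share of all genes called was 1.51%, 1.56% and 2.66% in the same fits. Each pair of these comparisons shares a group of rats, so the values of a member in them are given side by side and are not independent.

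**Figure D1:**
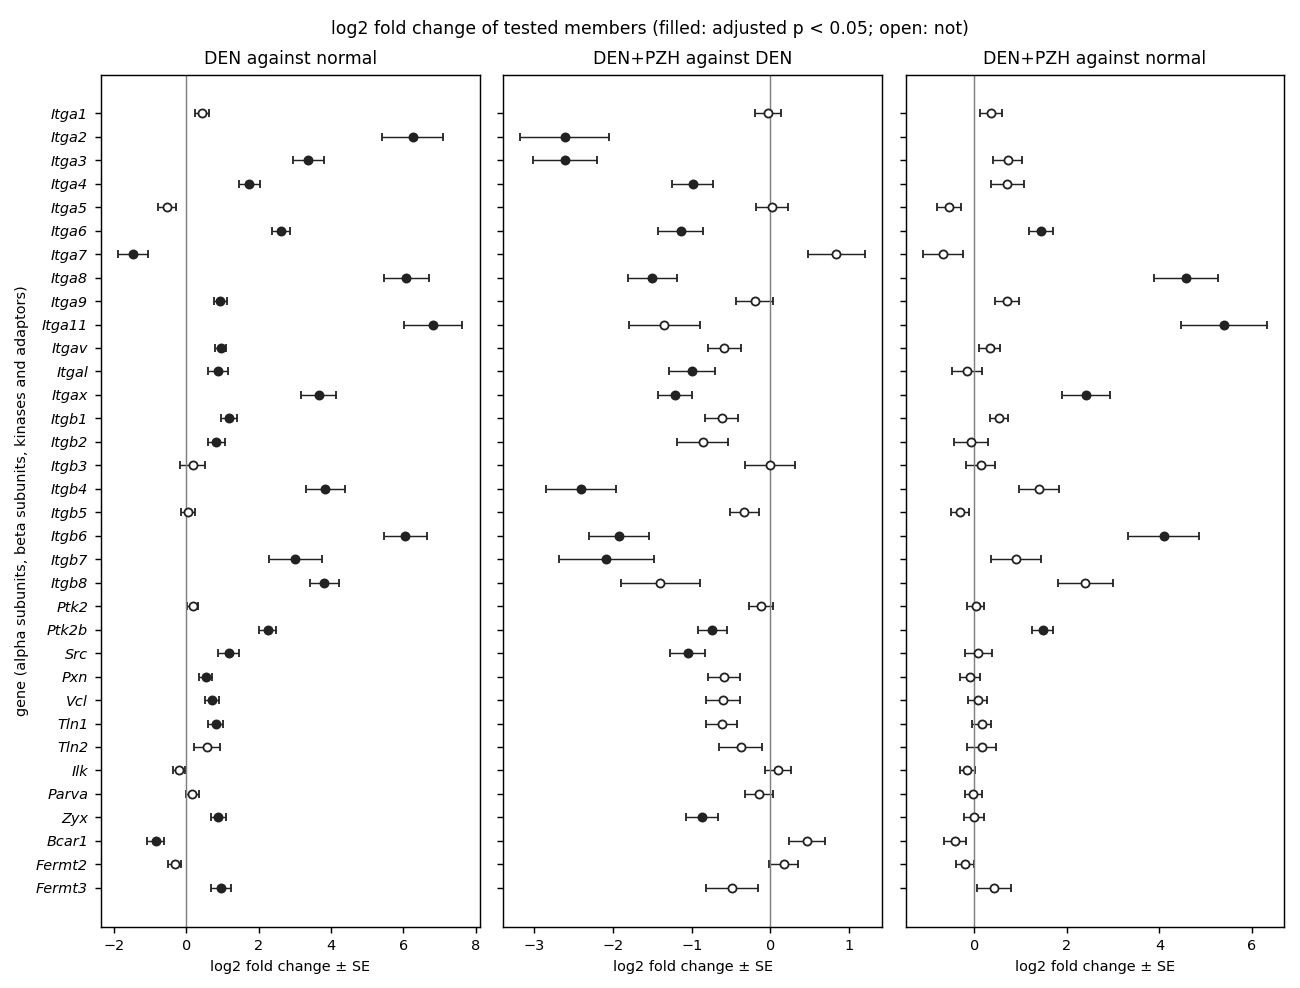
Log2 fold change (x axis, with the SE as bars) of each tested member (y axis) in DEN against normal, DEN+PZH against DEN and DEN+PZH against normal, each panel with its own x scale. Filled points are calls at an adjusted p under 0.05: 25 on the left, 23 of them to the right of 0, 13 in the middle, all to the left of 0, and 6 on the right, all to the right of 0. Itga2 has no point on the right because it was not tested there.

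Itgb6 encodes the β6 chain, which pairs with αv on epithelial cells and activates latent TGF-β (ENSRNOG00000008346, chromosome 3 from 46652623 to 46726958 in the file). It was at 0.624, 0.839 and 0 CPM in N1, N3 and N12, at 42.7, 27.8 and 25.2 in M13, M17 and M24, and at 4.22, 8.83 and 12.1 in G27, G28 and G42. No value of a group reached into another group, with M13 highest and G27 lowest among the DEN-treated rats. The log2 fold change was 6.06 ± 0.60 (SE, n = 3 rats per group) in DEN against normal (adjusted p = 0.000242), -1.92 ± 0.38 in DEN+PZH against DEN (adjusted p = 0.0164) and 4.09 ± 0.77 in DEN+PZH against normal (adjusted p = 0.0191). DEN+PZH rats were thus 3.79-fold below the DEN rats and 17.1-fold above the normal rats.

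Itga8 encodes α8, which pairs with β1 on mesenchymal cells and binds nephronectin and other RGD ligands (ENSRNOG00000016538, chromosome 17 from 79321900 to 79676499). Its level was 1.01, 0.168 and 2.90 CPM in the normal rats, 113, 77.9 and 88.8 in the DEN rats and 17.9, 41.4 and 38.5 in the DEN+PZH rats, in the same order of rats. The 3 groups were again separate, and M13 was highest. The log2 fold changes were 6.08 ± 0.61 (adjusted p = 0.000247), -1.50 ± 0.32 (adjusted p = 0.0189) and 4.57 ± 0.69 (adjusted p = 0.00873) in the 3 comparisons in the order above. Itgb8, the other αv partner that activates TGF-β, was at 0.546, 0.587 and 0.763 CPM in normal, 12.3, 8.41 and 6.06 in DEN and 1.19, 4.73 and 4.27 in DEN+PZH rats. Its rise in DEN had a log2 fold change of 3.82 ± 0.39 (adjusted p = 0.000267), while -1.40 ± 0.50 against DEN and 2.40 ± 0.59 against normal missed the threshold in DEN+PZH rats (adjusted p = 0.0850 and 0.0522). The Itgb8 ranges of the 3 groups did not overlap, but G27 lay close to the normal rats.

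The remaining RGD receptor subunits moved less. Itgav, the αv chain shared by these receptors, was at 24.5, 24.8 and 25.6 CPM in normal, 47.4, 47.3 and 48.5 in DEN and 22.8, 38.1 and 33.3 in DEN+PZH rats. It rose in DEN by a log2 fold change of 0.95 ± 0.14 (adjusted p = 0.00128), and in DEN+PZH rats its values of -0.59 ± 0.21 against DEN and 0.33 ± 0.23 against normal were not called (adjusted p = 0.0808 and 0.498), with G27 below every normal rat. Itga5, the α chain of the classical fibronectin receptor, was at 72.7, 36.7 and 45.8 CPM in normal, 34.9, 42.01 and 29.2 in DEN and 41.8, 33.1 and 30.5 in DEN+PZH rats, with overlapping groups. Its log2 fold change in DEN was -0.52 ± 0.26 (adjusted p = 0.127) with TMM factors and 0.30 with library totals, so no direction is given for it. Itgb5 and Itgb3, further αv partners, were not called in any of the 3 comparisons, with log2 fold changes of 0.06 and 0.19 in DEN. Both overlap a protein-coding gene, and Itgb5 is annotated as a processed transcript. Across the 7 RGD receptor members, 4 rose in DEN, 2 fell in DEN+PZH against DEN and 2 were higher in DEN+PZH than in normal rats. These are 57.1%, 28.6% and 28.6% of the 7, beside 45.8%, 19.1% and 5.21% of all genes tested. In the same directions, 25.3% of all genes were higher, 10.3% lower and 4.07% higher. In DEN against normal, Itga8, Itgb6 and Itgb8 passed the filter on low counts through the DEN rats alone. Against normal, Itga8 and Itgb6, the 2 called, passed it through the DEN+PZH rats alone. The shares of these 7 genes are thus a description, with no test.

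Among the 4 collagen receptor alpha subunits, which all pair with β1, Itga2 and Itga11 rose in DEN, Itga1 was not called and Itga10 had 0 counts in all 9 rats. Itga2 (ENSRNOG00000058111, chromosome 2 from 47000323 to 47096961) was at 0.0781, 0.168 and 0 CPM in normal, 5.73, 2.77 and 11.2 in DEN and 0.682, 1.46 and 1.07 in DEN+PZH rats. M24 was highest and M17 lowest among the DEN rats, and the 3 groups did not overlap. The normal rats held 3 counts together against 460 in the DEN rats, a ratio of 85.5 (95% interval 29.1 to 416, exact binomial, counting error only), and the fitted log2 fold change was 6.26 ± 0.84 (adjusted p = 0.000781). In DEN+PZH rats Itga2 fell by 2.62 on the log2 scale against DEN (SE 0.56, adjusted p = 0.0202), and it was too low for a test against normal rats, where the ratio of counts was 12.6 (4.09 to 63.3).

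Itga11 (ENSRNOG00000006723, chromosome 8 from 67615635 to 67683973), the α chain of a collagen receptor of fibroblasts, was at 0, 0 and 0.0763 CPM in normal, 5.05, 2.23 and 3.90 in DEN and 0.810, 1.88 and 1.71 in DEN+PZH rats. A single count was found in the normal rats, against 258 in the DEN and 70 in the DEN+PZH rats, ratios of 144 (25.6 to 5703) and 51.1 (8.87 to 2045). These intervals are wide because the normal level was at the limit of detection. The test gave an adjusted p of 0.000463 in DEN against normal and 0.0143 in DEN+PZH against normal, and DEN+PZH against DEN missed the threshold (log2 fold change -1.35 ± 0.46, adjusted p = 0.0735). Itga1, the α chain of a further collagen receptor, was at 27.1 to 42.7 CPM in normal and 44.3 to 51.2 in DEN rats, a log2 fold change of 0.44 ± 0.20 (adjusted p = 0.0962).

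Sequences before and around the transcription start are shown for the 4 members that rose most in DEN, with RefSeq entries for 26 of the 36 members (assembly GRCr8, 250 bases before to 50 after the start, 5′ to 3′ on the gene's strand). Capitals mark motifs searched on both strands: AP-1 (TGANTCA), TEAD (GGAATG), RUNX (TGTGGT), ETS (GAGGAAG), GC box (GGGCGG) and the CArG box of serum response factor.
Itgb6, chr3:65530284-65530583, minus strand: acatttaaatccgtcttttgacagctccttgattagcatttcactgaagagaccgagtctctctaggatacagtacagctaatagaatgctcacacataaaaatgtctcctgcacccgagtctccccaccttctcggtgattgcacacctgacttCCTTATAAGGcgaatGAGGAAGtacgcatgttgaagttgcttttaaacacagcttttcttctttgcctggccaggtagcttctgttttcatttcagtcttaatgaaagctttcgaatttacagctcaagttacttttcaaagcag
Itga8, chr17:80410584-80410883, minus strand: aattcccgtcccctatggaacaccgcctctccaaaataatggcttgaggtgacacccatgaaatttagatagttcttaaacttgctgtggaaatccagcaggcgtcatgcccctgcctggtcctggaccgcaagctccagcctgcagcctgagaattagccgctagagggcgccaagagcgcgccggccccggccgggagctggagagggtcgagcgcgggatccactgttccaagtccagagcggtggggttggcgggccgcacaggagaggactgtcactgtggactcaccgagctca
Itga2, chr2:48354460-48354759, minus strand: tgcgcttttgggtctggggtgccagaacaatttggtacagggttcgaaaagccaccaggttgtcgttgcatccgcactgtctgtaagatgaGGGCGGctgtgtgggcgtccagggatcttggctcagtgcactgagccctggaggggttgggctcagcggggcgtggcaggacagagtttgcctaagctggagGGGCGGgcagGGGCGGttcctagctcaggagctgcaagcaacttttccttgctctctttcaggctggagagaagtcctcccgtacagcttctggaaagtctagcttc
Itga11, chr8:72041182-72041481, plus strand: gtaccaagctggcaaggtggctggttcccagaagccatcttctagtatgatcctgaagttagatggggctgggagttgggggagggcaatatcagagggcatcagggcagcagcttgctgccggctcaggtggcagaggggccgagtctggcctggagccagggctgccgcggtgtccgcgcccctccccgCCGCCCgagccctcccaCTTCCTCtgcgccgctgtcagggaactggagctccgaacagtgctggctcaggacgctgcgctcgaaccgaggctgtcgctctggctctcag
The Itgb6 window held a CArG box at -95 and an ETS match at -80 from the start, Itga2 held 3 GC boxes, Itga11 a GC box and an ETS match on the other strand, and Itga8 none of these letters. The CArG box was found in 1 of the 29 windows of the 26 members (Zyx, Pxn and Bcar1 have 2 each) and in 1.64% of all 33469 promoters of the same length, and AP-1 in 1 window (Itgax, TGAGTCA) and 7.33% of promoters. TEAD letters were in 7 of the 29 windows (14.2% of all), RUNX in 8 (17.3%), ETS in 4 (12.4%) and GC boxes in 17 (33.1%). A match describes the letters only.

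**Figure D2:**
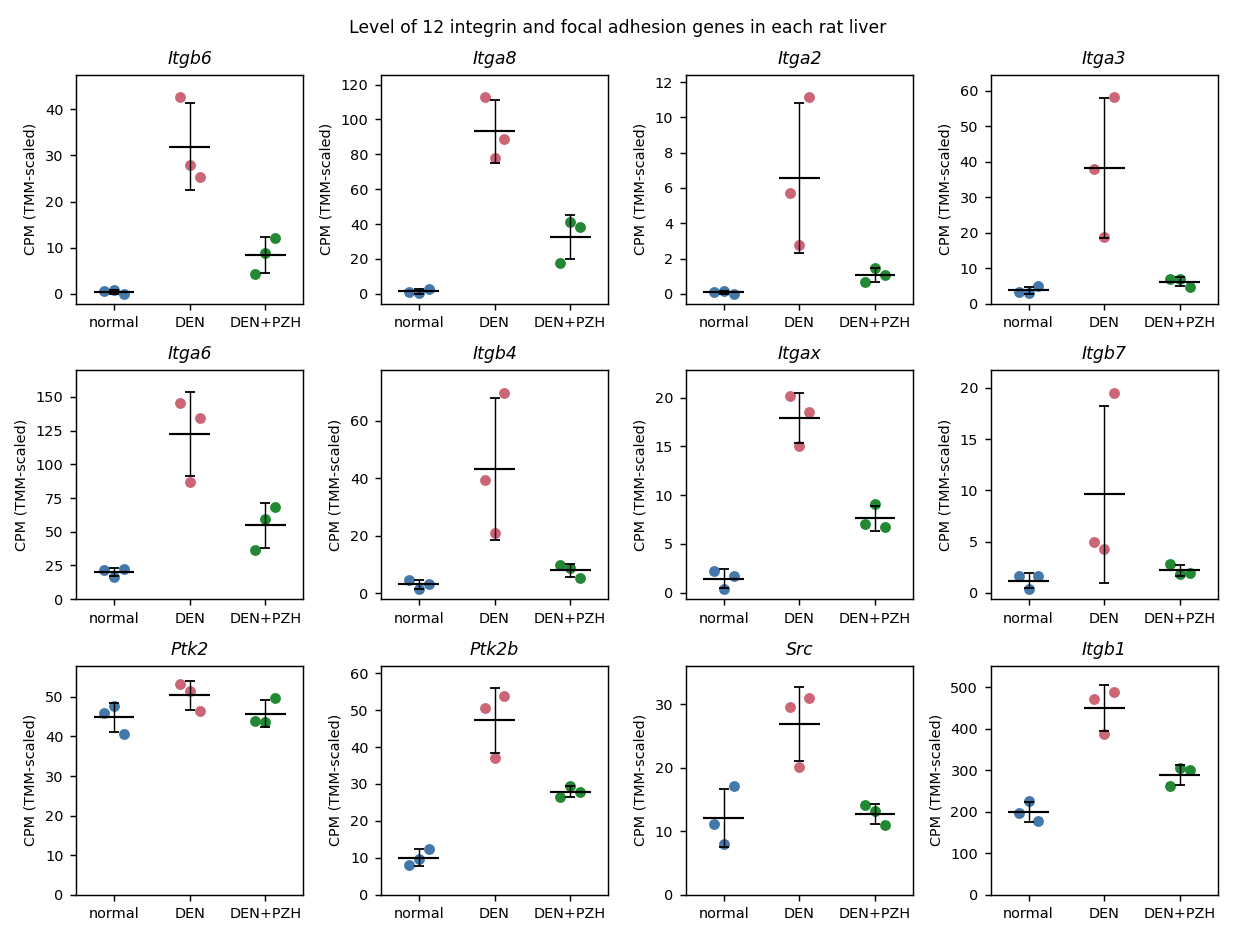
CPM after TMM scaling (y axis, linear, each panel with its own scale) of 12 members in each of the 9 rats, with the mean as a line and the SD of 3 rats as bars. The 3 groups are separate for 9 genes, Itgb6, Itga8, Itga2, Itga6, Itgb4, Itgax, Itgb7, Ptk2b and Itgb1, whereas the Ptk2 values of all 9 rats lie between 40.7 and 53.3. M24 stands highest for 7 of the 12 genes, Itga2, Itga3, Itgb4, Itgb7, Ptk2b, Src and Itgb1.

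The laminin receptor subunits split in direction. Itga3, Itga6 and Itgb4, which build the laminin receptors α3β1 and α6β4 of epithelial cells, rose in DEN and fell in DEN+PZH against DEN, and Itga7, best known from muscle, fell in DEN. Itga3 (ENSRNOG00000004276, chromosome 10 from 82855613 to 82887497) was at 3.28, 3.02 and 4.88 CPM in normal, 37.98, 18.7 and 58.1 in DEN and 6.87, 6.82 and 4.77 in DEN+PZH rats. G42 lay within the normal range and the 3 DEN rats were spread, with M17 lowest and M24 highest. Its log2 fold change was 3.37 ± 0.43 in DEN (adjusted p = 0.000609), -2.61 ± 0.41 in DEN+PZH against DEN (adjusted p = 0.0103) and 0.73 ± 0.31 against normal (adjusted p = 0.257). Of the 13 calls in DEN+PZH against DEN, that of Itga3 was the only one that held without each of the 6 rats in turn. The calls of Itga4, Itga6, Itgal, Itgb7, Ptk2b and Zyx were each lost in 5 of these 6 fits, and those of Itga2 and Src in 4.

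Itgb4 (ENSRNOG00000005580, chromosome 10 from 104523996 to 104561078), the β chain of the hemidesmosome, was at 4.76, 1.34 and 3.05 CPM in normal, 39.3, 20.8 and 69.8 in DEN and 9.77, 8.76 and 5.34 in DEN+PZH rats. It rose by 3.84 ± 0.54 in DEN (adjusted p = 0.000925) and fell by 2.41 in DEN+PZH against DEN (SE 0.45, adjusted p = 0.0144). In DEN+PZH against normal it gave 1.40 ± 0.44 (adjusted p = 0.115), with no overlap of the groups. Its gene overlaps Galk1 in the file, so reads of Galk1 may be counted in it. Itga6, the α partner of Itgb4 and of Itgb1, was at 22.01, 16.5 and 22.1 CPM in normal, 145, 86.7 and 134 in DEN and 36.5, 59.3 and 68.2 in DEN+PZH rats. The groups were separate in all 3 comparisons, with log2 fold changes of 2.61 ± 0.24 (adjusted p = 0.000187), -1.14 ± 0.29 (adjusted p = 0.0300) and 1.44 ± 0.26 (adjusted p = 0.0171). The second and the third call were each lost in 5 of the 6 fits that left out a rat. Itga7 was at 56.4, 17.5 and 49.8 CPM in normal, 11.8, 19.9 and 12.1 in DEN and 39.5, 17.9 and 19.01 in DEN+PZH rats. It fell by 1.47 in DEN (SE 0.41, adjusted p = 0.0182), but N3 lay within the DEN range, the call was lost without N1, N12, M13 or M24, and it overlaps Mettl7b. Library totals gave -0.67, which was not called.

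Markers of 2 further cell compartments moved with these subunits. The 6 cholangiocyte and progenitor markers, all detected in every group, summed to 15.2 to 23.8 CPM in normal, 269 to 810 in DEN and 86.7 to 133 in DEN+PZH rats. All 6 rose in DEN, fell in DEN+PZH against DEN and were called higher in DEN+PZH than in normal rats. Of all genes, 45.8%, 19.1% and 5.21% were called in these comparisons. M17 had the lowest sum of the DEN rats, and also the lowest Itga2, Itga3, Itga6 and Itgb4. Itgb6 was lowest in M24, at 25.2 CPM beside 27.8 in M17, although M24 had the highest sum. The 8 stellate and myofibroblast markers summed to 56.4 to 92.5 CPM in normal, 275 to 508 in DEN and 128 to 178 in DEN+PZH rats, with Postn at 0 counts in normal rats. Of these, 6 rose in DEN and 4 fell in DEN+PZH against DEN. These are 75% and 50% of the 8, beside 45.8% and 19.1% of all genes. The part of these cell types in the levels of Itgb6, Itga8, Itga11, Itga2, Itga3, Itga6 and Itgb4 was not tested.

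**Figure D3:**
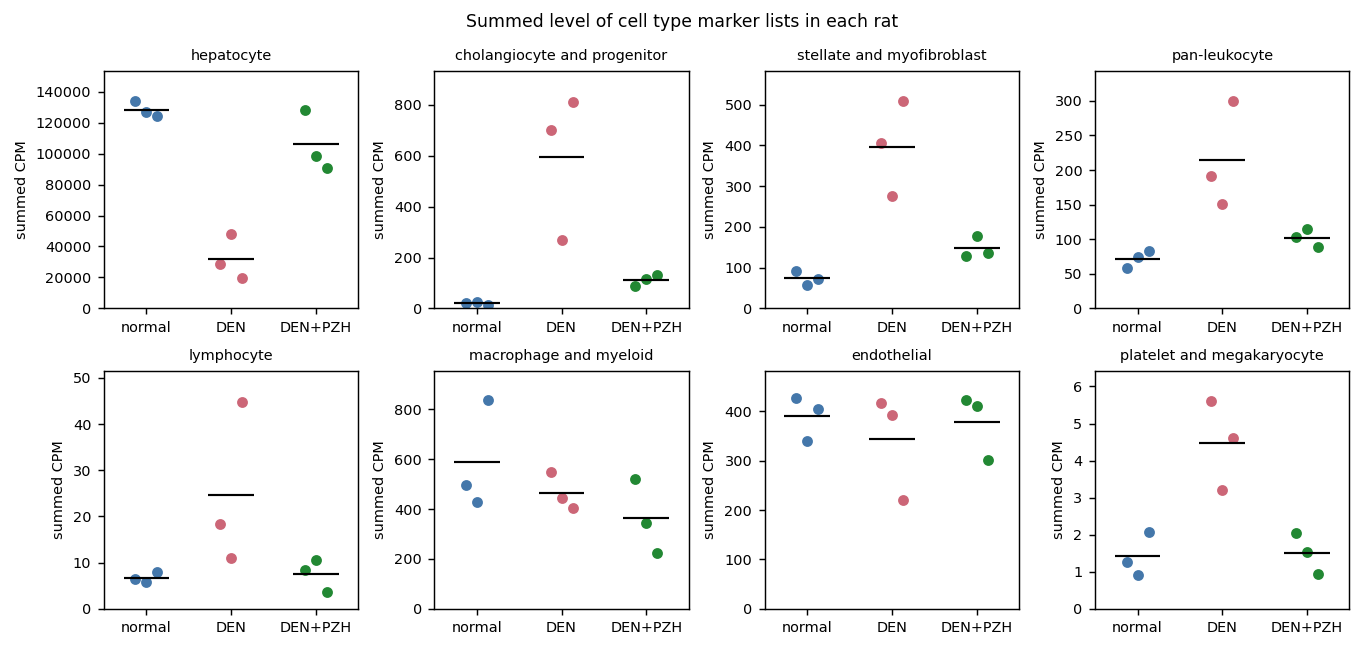
Summed CPM (y axis) of 8 lists of cell type markers in each rat, with the group mean as a line. Hepatocyte markers are lowest in the 3 DEN rats, cholangiocyte and progenitor, stellate and pan-leukocyte markers are highest there, and macrophage and endothelial sums overlap between the groups.

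Leukocyte integrins made up the next group, with the subunits Itgal, Itgax, Itgb2, Itga4 and Itgb7 and the leukocyte kindlin Fermt3. All 6 rose in DEN, and Itgax, Itga4, Itgal and Itgb7 fell in DEN+PZH against DEN. These are 100% and 66.7% of the 6, beside 45.8% and 19.1% of all genes. In DEN against normal, Itgax and Itgb7 passed the filter on low counts through the DEN rats alone, so these shares are a description. Itgax, the α chain of the complement receptor CD11c/CD18 of dendritic cells and macrophages, was at 2.26, 0.336 and 1.68 CPM in normal, 20.2, 15.04 and 18.6 in DEN and 6.99, 9.11 and 6.76 in DEN+PZH rats. These 3 ranges were separate, and the log2 fold changes were 3.66 ± 0.48 (adjusted p = 0.000692), -1.21 ± 0.22 (adjusted p = 0.0138) and 2.42 ± 0.52 (adjusted p = 0.0313). The Itgad row of the file, chromosome 1 from 199495298 to 199623960, spans the whole of Itgax, so how reads were divided between both genes is uncertain. Among the RefSeq promoters, Itgam lies before Itgax on the same strand. The Itgad row also starts before Itgax, so it may hold reads of Itgam as well, which was not tested. This row gave 3.04, 0.587 and 7.55 CPM in normal, 16.6, 15.3 and 17.8 in DEN and 8.06, 6.47 and 3.13 in DEN+PZH rats. Its log2 fold changes were 2.16 ± 0.62 (adjusted p = 0.0214) and -1.46 ± 0.33 (adjusted p = 0.0238) in the first 2 comparisons.

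Itga4, which pairs with β1 or β7 and binds VCAM-1 and fibronectin, was at 2.58, 4.78 and 4.81 CPM in normal, 12.9, 11.98 and 15.4 in DEN and 7.25, 7.999 and 4.70 in DEN+PZH rats. It rose by 1.74 ± 0.29 in DEN (adjusted p = 0.00204) and fell by 0.99 in DEN+PZH against DEN (SE 0.26, adjusted p = 0.0347), where G42 lay within the normal range. Itgb7, its partner in gut homing, was at 1.64, 0.336 and 1.60 CPM in normal, 4.96, 4.31 and 19.5 in DEN and 2.81, 1.88 and 1.92 in DEN+PZH rats. M24 stood far above the other DEN rats, and the log2 fold changes of 3.02 ± 0.73 and -2.09 ± 0.61 (adjusted p = 0.0103 and 0.0466) became 1.98 and -1.03 without it, the second no longer called. The second call was also lost without M13, G27, G28 or G42. Itgal, the α chain of LFA-1, was at 23.3, 24.6 and 43.9 CPM in normal, 53.7, 45.7 and 67.4 in DEN and 33.2, 32.1 and 16.7 in DEN+PZH rats. Its changes were 0.87 ± 0.28 in DEN (adjusted p = 0.0309) and -0.997 ± 0.29 in DEN+PZH against DEN (adjusted p = 0.0462), and 4 and 5 of the 6 fits that left out a rat lost them. Itgb2, the shared β chain of these leukocyte receptors, rose in DEN (0.83 ± 0.24, adjusted p = 0.0212) and missed the threshold in DEN+PZH against DEN (-0.86 ± 0.33, adjusted p = 0.0992). Fermt3 rose in DEN (0.96 ± 0.27, adjusted p = 0.0191) and had -0.49 ± 0.33 in DEN+PZH against DEN (adjusted p = 0.324), with G42 lowest of the DEN+PZH rats for Itga4, Itgal, Itgb2 and Fermt3. Fermt3 overlaps Trpt1 in the file.

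Leukocyte marker lists were summed in the same rats. The 3 pan-leukocyte markers summed to 59.2 to 82.5 CPM in normal, 151 to 300.3 in DEN and 88.9 to 115 in DEN+PZH rats, with M24 highest and G42 lowest within their groups. Of the lymphocyte markers, 7 of 8 have a row, and they summed to 5.87 to 7.93, 11.1 to 44.8 and 3.63 to 10.6 CPM, again with M24 at the top and G42 at the bottom. Of 6 tested, 4 rose in DEN and 0 were called in DEN+PZH against DEN. These are 66.7% and 0% of the 6, beside 45.8% and 19.1% of all genes. In DEN+PZH against DEN all 6 had log2 fold changes below 0, with a median of -1.61. The integrin genes did not all follow the order with M24 at the top and G42 at the bottom. Itgax, Itgb2 and Fermt3 were highest in M13, at 20.2, 49.6 and 25.2 CPM, and Itgb7 was lowest in G28, at 1.88. The summed level of the 8 macrophage and myeloid markers overlapped between groups, at 429 to 837, 406 to 549.6 and 225 to 519 CPM. Of these markers 2 rose and 2 fell in DEN, and 5 fell in DEN+PZH against DEN. These are 50% and 62.5% of the 8, beside 45.8% and 19.1% of all genes. The first share stands near that of all genes. Endothelial sums overlapped too, at 341 to 428, 221 to 416 and 301 to 423 CPM. Of 6 tested endothelial markers 2 rose and 3 fell in DEN, and 1 rose and 1 fell in DEN+PZH against DEN. These are 83.3% and 33.3% of the 6, beside the same 45.8% and 19.1% of all genes. Platelet markers, which bear on Itgb3, summed to 0.92 to 2.06 CPM in normal, 3.22 to 5.60 in DEN and 0.93 to 2.05 in DEN+PZH rats. Gp1bb was at 0 counts in normal and DEN and Ppbp at 0 in DEN+PZH rats. Of the 6 platelet markers, 5 have a row and only 1 was high enough to be tested, so these sums rest on low counts. No marker of the 3 leukocyte lists was at 0 in every rat of a group. The part of leukocyte numbers in the levels of these integrins was not tested.

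Itgb1 encodes β1, the chain that most alpha subunits share. It was at 196, 225 and 177 CPM in normal, 473, 387 and 489.6 in DEN and 262, 305 and 301 in DEN+PZH rats, without overlap between the groups. It rose in DEN by 1.19 ± 0.22 (adjusted p = 0.00328), and -0.62 ± 0.21 in DEN+PZH against DEN and 0.54 ± 0.20 against normal missed the threshold (adjusted p = 0.0748 and 0.175). Itga9, which pairs with β1 and binds tenascin-C, rose in DEN (0.95 ± 0.17, adjusted p = 0.00304) and was at -0.20 ± 0.24 in DEN+PZH against DEN (adjusted p = 0.585).

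Set per transcript length, the mix of subunits differed between the groups. FPKM of the 8 beta members summed to 64.5 to 73.8 in normal, 191 to 311 in DEN and 94.4 to 112 in DEN+PZH rats, and of the alpha members with a row to 32.6 to 46.6, 121 to 187 and 56.0 to 67.0. FPKM follows library totals and so carries the shift of all genes given above, which the share of each subunit within a rat does not. Itgb1 made up 52.3% to 69.7% of the beta pool in normal, 67.4% to 67.9% in DEN and 65.4% to 75.4% in DEN+PZH rats, the largest share in every rat. The share of Itgb5 was 18.9% to 26.8% in normal and lower in DEN (10.8% to 13.8%) and DEN+PZH rats (13.1% to 16.6%). Itgb5 is annotated as a processed transcript and overlaps the protein-coding AC133403.1, whose reads may be counted in it. Itgb6 went from 0% to 0.18% in normal to 2.43% to 4.23% in DEN and 0.73% to 2.11% in DEN+PZH rats. Among alpha subunits, Itga5 took 18.8% to 28.2% of the pool in normal, 5.59% to 9.63% in DEN and 10.4% to 14.7% in DEN+PZH rats, while Itga8 took 0.06% to 0.92%, 12.8% to 16.3% and 4.71% to 10.3%. Itga6 rose from 6.21% to 6.88% in normal to 14.6% to 20.7% in DEN, with 9.42% to 17.9% in DEN+PZH rats. These shares are a description, with no test.

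**Figure D4:**
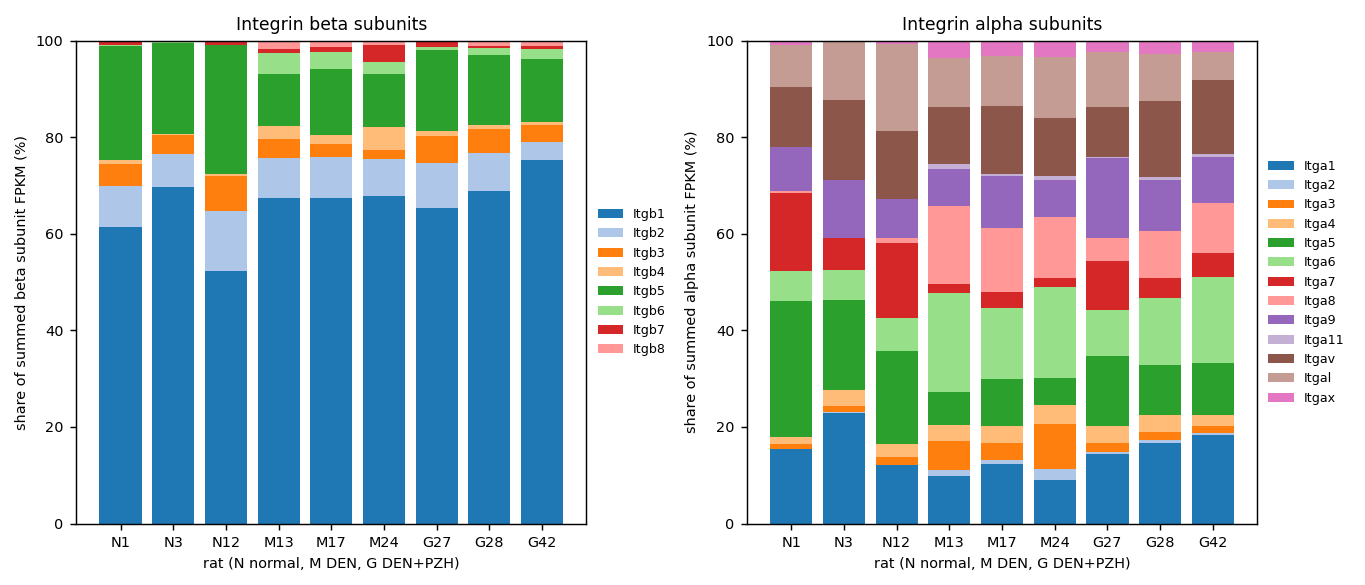
Share of the summed FPKM (y axis, percent) that each beta subunit (left) and each alpha subunit (right) took in each of the 9 rats. Itgb1 holds 52.3% or more of the beta pool in every rat, and Itga8 and Itga6 take a larger part, and Itga5 a smaller part, of the alpha pool in the 3 DEN rats than in the 3 normal rats.

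Ratios between related members within a rat do not depend on the scaling between libraries. Of 7 ratios in 3 comparisons, 12 of the 21 sets of values did not overlap, each at p = 0.1, the smallest that an exact two-sided permutation test gives for 3 against 3 rats, and 0.175 after adjustment over the 21. Ptk2b/Ptk2 was 0.152, 0.178 and 0.269 in normal, 0.836, 0.635 and 1.02 in DEN and 0.531, 0.593 and 0.492 in DEN+PZH rats, separate in all 3 comparisons. Itgb6/Itgb5 and Itga6/Itga1 were separate in all 3 as well, and Itga6/Itga1 went from 0.271 to 0.571 in normal to 1.18 to 2.12 in DEN and 0.651 to 0.974 in DEN+PZH rats. The denominators Itgb5 and Itga1 overlap the protein-coding AC133403.1 and Pelo, whose reads may be counted in them. Itgb4/Itgb1 was separate in the comparisons with DEN and overlapped between DEN+PZH and normal rats. Fermt3/Fermt2 was separate only in DEN against normal, and Tln2/Tln1 and Itgb2/Itgb1 overlapped in all 3 comparisons.

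The kinases at the core of the complex diverged. Ptk2 (ENSRNOG00000007916, chromosome 7 from 114437361 to 114590119) was at 46.1, 47.8 and 40.7 CPM in normal, 53.3, 51.4 and 46.4 in DEN and 43.97, 43.7 and 49.7 in DEN+PZH rats. All groups overlapped and no comparison was called, with log2 fold changes of 0.19 ± 0.15 (adjusted p = 0.347), -0.12 ± 0.15 (adjusted p = 0.628) and 0.03 ± 0.18 (adjusted p = 0.955). With library totals in place of TMM the values became 1.05 in DEN (adjusted p = 0.00107) and -0.78 in DEN+PZH against DEN (adjusted p = 0.0148), both called, close to the shifts of 0.89 and -0.67 that all genes took. Its paralogue Ptk2b (ENSRNOG00000027839, chromosome 15 from 42827310 to 42947656), encoding the calcium-responsive kinase Pyk2, was at 7.96, 9.65 and 12.4 CPM in normal, 50.6, 37.1 and 53.9 in DEN and 26.5, 29.4 and 27.8 in DEN+PZH rats. The groups were separate throughout, with log2 fold changes of 2.25 ± 0.24 (adjusted p = 0.000296), -0.74 ± 0.19 (adjusted p = 0.0309) and 1.48 ± 0.23 (adjusted p = 0.00997). Per length, Ptk2b stood below Ptk2 in 8 of the 9 rats and above it in M24, at 19.6 against 19.1 FPKM.

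Src, the partner kinase of FAK, was at 11.1, 8.05 and 17.2 CPM in normal, 29.6, 20.2 and 31.0 in DEN and 14.1, 13.1 and 11.03 in DEN+PZH rats. It rose by 1.17 ± 0.30 in DEN (adjusted p = 0.0130) and fell by 1.05 in DEN+PZH against DEN (SE 0.22, adjusted p = 0.0196), to values that overlapped those of the normal rats. Ilk, the integrin-linked pseudokinase, was at 94.1, 89.4 and 85.2 CPM in normal, 74.8, 82.7 and 73.1 in DEN and 85.98, 75.9 and 80.5 in DEN+PZH rats. It was not called in any comparison (-0.20 ± 0.16 in DEN, adjusted p = 0.321), its direction turned to 0.65 with library totals, and it overlaps Taf10 and Rrp8. Zyx, the zyxin gene of actin-bound adhesions, was at 35.05, 27.4 and 43.03 CPM in normal, 62.97, 52.8 and 77.7 in DEN and 33.4, 40.0 and 30.7 in DEN+PZH rats. It rose by 0.89 ± 0.22 in DEN (adjusted p = 0.0109), fell by 0.87 in DEN+PZH against DEN (SE 0.20, adjusted p = 0.0244) and lay within the range of the normal rats in all 3 DEN+PZH rats. Zyx overlaps Epha1 in the file.

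Among the remaining scaffolds, Bcar1, the gene of p130Cas, was at 97.6, 76.1 and 123 CPM in normal, 53.1, 65.5 and 45.03 in DEN and 89.2, 75.1 and 57.7 in DEN+PZH rats. It fell by 0.84 in DEN (SE 0.23, adjusted p = 0.0166), a call lost without N12, M13 or M24, and library totals gave -0.01. In DEN+PZH against DEN it had 0.47 ± 0.23 (adjusted p = 0.186). Fermt2, the kindlin of solid tissues, was at 125, 147 and 135 CPM in normal, 109.8, 109.9 and 104 in DEN and 100.4, 134 and 124 in DEN+PZH rats, -0.32 ± 0.17 in DEN (adjusted p = 0.165) and 0.55 with library totals, so no direction is given. Talin 1 (Tln1), vinculin (Vcl) and paxillin (Pxn) rose in DEN by log2 fold changes of 0.81, 0.72 and 0.54 (adjusted p = 0.0118, 0.0187 and 0.0433). In DEN+PZH against DEN they were at -0.62, -0.60 and -0.59 with no overlap of the groups and missed the threshold (adjusted p = 0.0609, 0.0807 and 0.0756). Tln1 overlaps Creb3 in the file. Talin 2 (Tln2) and α-parvin (Parva) were not called in any comparison.

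Genes around the receptors were counted in the same fits. Of 34 matrix and cell-surface ligands of integrins, 33 were tested, and 25 rose and 2 fell in DEN, 20 fell in DEN+PZH against DEN, and 12 of 31 tested were higher in DEN+PZH than in normal rats (81.8%, 60.6% and 38.7% called, beside 45.8%, 19.1% and 5.21% of all genes). Their median log2 fold changes were 1.94, -1.12 and 0.84, beside 0.03, 0.01 and -0.02 over all genes tested. In DEN 5 of the 33 had a log2 fold change below 0, the lowest at -2.58. The ligands named next are among those that rose. Lama5, a laminin chain of epithelial and vascular basement membrane, was at 1.41, 0.755 and 2.14 CPM in normal, 122, 81.7 and 106 in DEN and 18.6, 16.5 and 13.9 in DEN+PZH rats. The ligand osteopontin (Spp1), also among the cholangiocyte markers above, was at 0.781, 1.17 and 1.22, 24.99, 41.4 and 124 and 2.64, 14.3 and 7.55 CPM. Tenascin-C (Tnc) was at 0.468, 0.168 and 0.229, 4.46, 1.88 and 64.8 and 1.02, 1.39 and 0.427 CPM, with M24 far above the other 8 rats, and Lama1 was at 0 counts in all normal rats and at least 3.68-fold higher in DEN, against 3 counts per library.

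Of 42 other genes of the adhesion complex, 41 were tested, and 22 rose and 1 fell in DEN, 10 fell in DEN+PZH against DEN, and 2 of 39 were higher in DEN+PZH than in normal rats. The shares called were 56.1%, 24.4% and 5.13%, beside 45.8%, 19.1% and 5.21% of all genes. By direction, 25.3% of all genes were higher in DEN and 10.3% lower in DEN+PZH against DEN. In DEN+PZH against normal 4.07% were higher, and the share of this list stands near that. Fermt1, the epithelial kindlin, was at 0, 0.252 and 0.0763 CPM in normal, 16.5, 4.60 and 4.90 in DEN and 0.426, 1.18 and 0.854 in DEN+PZH rats, and filamin A (Flna) was at 34.4, 26.9 and 41.3, 243, 166 and 283 and 74.9, 73.9 and 41.8. Efs, a relative of Bcar1, was at 0, 0 and 0.153, 3.86, 3.91 and 5.15 and 1.07, 2.64 and 1.49 CPM, and Tgfb1i1, a paxillin relative, at 1.48, 1.43 and 2.36, 14.3, 9.15 and 14.2 and 4.22, 3.69 and 1.57.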

How the data were processed

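Liver mRNA of 9 rats, 3 per group with 1 library per rat, was sequenced by the authors. The submitters' processing notes name fastp, HISAT2 2.1.0, StringTie 1.3.3b and edgeR 3.30.3, and the genome build is not given in the sources used here. The authors deposited 1 table with whole-number counts per gene and rat, not normalized, and FPKM, scaled by the authors for length and library size. Their group means, fold changes, P and Q values were not used, and 0 per-sample columns were left unmapped.

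Counts were tested in R 4.3.3 with the quasi-likelihood test of edgeR 4.0.16 after filterByExpr and TMM, with 6 rats in a comparison and no covariate. P-values were adjusted by Benjamini-Hochberg across every gene tested, a call being a value under 0.05, and the SE is the absolute log2 fold change over the root of F. DESeq2 1.42.0 was an alternative. The pipeline was tested on simulated data with known changes. Ratios used FPKM with a pseudocount of 0.01 and exact permutation tests. Intervals and limits for 0 counts cover counting error only. Promoter sequences are from RefSeq (GRCr8), whose coordinates were not mixed with those of the file.

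The members and gene lists were chosen with earlier results of these data known. Values per rat are given for members called in either comparison of DEN+PZH rats, past the study's thresholds in DEN, turned in direction by library totals, and for Ptk2, Itgb1, Itgav, Ilk and Src, 23 of 36 with Itga7 and Bcar1, which were added after their values were seen. From other lists at most the 4 largest changes called in DEN were named, and the 3 other integrin subunits. Values of other members that help a comparison were added after they were seen. Alternatives were DESeq2, library totals, RLE factors, no low-count filter, a minimum of 10 counts in each rat, a joint fit of the 3 groups, counts in place of FPKM and each rat left out.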

Additional observations from a re-analysis of the deposited data

How the results depend on the processing

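No paired analysis was possible because the groups share no replicate numbers. Library totals in place of TMM moved most values, by construction of the scaling. In DEN against normal they turned Ilk to 0.65, Itga5 to 0.30 and Fermt2 to 0.55 on the log2 scale. In DEN+PZH against DEN they turned Ilk to -0.57, Itga5 to -0.64, Fermt2 to -0.50 and Bcar1 to -0.19. They gave 30 calls there (43.8% of all genes were called) and 5 past the study's thresholds. In DEN+PZH against normal they turned Zyx to 0.21, Ilk to 0.0841, Itgal to 0.0528 and Fermt2 to 0.0552. At least 10 counts in every rat removed low members, leaving 4 past the study's thresholds in DEN against normal, and 2 calls and 0 past those thresholds in DEN+PZH against normal (5 by DESeq2, which gave 4 in DEN+PZH against DEN). With that minimum, 2.88% of all genes were called in DEN+PZH against normal. That filter gave -0.0154 for Itga5 in DEN+PZH against DEN and 0.0285 for Zyx in DEN+PZH against normal, and the fit of all 3 groups gave -0.00854 for Itga5. Leaving out each rat gave 18 to 25 calls in DEN against normal with 10 past the study's thresholds throughout, 1 to 17 calls and 0 to 3 past the thresholds in DEN+PZH against DEN, and 0 to 8 calls and 1 to 4 in DEN+PZH against normal. Of all genes, 32.7% to 45.7%, 1.87% to 22.6% and 1.51% to 9.73% were called in these fits. These fits ranged from -0.13 to 0.14 for Itga5 in DEN+PZH against DEN, and in DEN+PZH against normal from -0.15 to 0.14 for Zyx, -0.34 to 0.17 for Itgal, -0.12 to 0.41 for Src and -0.0517 to 0.10 for Ptk2. The share of Itgb1 in the beta pool of DEN rats was 62.1% by counts. Except for library totals, the cause of these moves was not tested. With 3 rats a group, members near the limit of 3 counts in normal rats, such as Itga2 and Itga11, have levels whose fold is poorly bounded.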

Other observations

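Other integrin subunits outside the set were measured in the same fits. Itgae, the αE chain of epithelial T cells, was at 2.42, 4.28 and 3.89 CPM in normal, 6.45, 5.79 and 7.14 in DEN and 6.18, 10.3 and 9.54 in DEN+PZH rats. It rose in DEN by a log2 fold change of 0.89 ± 0.30 (adjusted p = 0.0409), and its value of 0.44 ± 0.26 in DEN+PZH against DEN was not called (adjusted p = 0.261). Itga2b, the platelet subunit αIIb, was at 14.4, 5.62 and 13.2 CPM in normal, 6.37, 6.14 and 2.45 in DEN and 10.6, 9.11 and 3.13 in DEN+PZH rats, and was not called in DEN (-1.13 ± 0.44, adjusted p = 0.0657).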
